A study of Homo sapiens with 12 samples.

Results

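The mRNAs of 10 mitotic kinesins were followed through 12 RNA libraries of tagged ribosomes and of the ribosome fractions they were taken from. The 10 were chosen by Ensembl identifier, partly because CENPE was strongly raised in the immunoprecipitates of the wild-type line. They are 10 of the 57820 gene identifiers counted: CENPE (ENSG00000138778), KIF11 (ENSG00000138160), KIF14 (ENSG00000118193), KIF15 (ENSG00000163808), KIF18A (ENSG00000121621), KIF20A (ENSG00000112984), KIF20B (ENSG00000138182), KIF23 (ENSG00000137807), KIF2C (ENSG00000142945) and KIF4A (ENSG00000090889). The symbols come with the selection and are not in the count tables, which hold identifiers alone. All 10 mRNAs passed the filter on low counts, with 68 to 1729 reads in a library.

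The cells were HEK293 Flp-In T-REx, a human embryonic kidney line with a single recombination site for a transgene. Stable lines made FLAG/HA-tagged RPL12, a protein of the large ribosomal subunit, as S38A (alanine in place of a serine, so that the site cannot take a phosphate), S38D (aspartate in its place, a phosphorylation mimic) or wild type (WT). The tagged protein was overexpressed in all lines, hygromycin selection gave monoclonal colonies, and how many clones stand behind a line was not stated in the labels. Removal of the cells' own RPL12 is not described. Polyadenylated RNA was sequenced from an anti-FLAG immunoprecipitate (IP) of a pooled 80S (monosome) fraction from a sucrose gradient and from an aliquot of the same fraction, the input. There were 2 IP and 2 input libraries for each of S38A, S38D and WT. The series concerns the phosphorylation of RPL12 and translation in mitosis. Separate cultures for the 2 libraries of a group are not mentioned in the labels, so a p-value here reflects library-to-library spread that may be technical. The tagged gene and HEK293 markers were not analysed here, because no table paired their symbols with identifiers.

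Kinesins are motor proteins that use ATP to walk along microtubules or to take them apart. The mitotic members build the bipolar spindle, carry chromosomes to its middle and organise the microtubules between the separating chromosomes until the cells divide. Many of their genes are transcribed mainly in the G2 and M phases of the cell cycle, through promoters with a cell cycle homology region (CHR), a hexamer bound by the DREAM and MuvB complexes.

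Promoter windows of CENPE, KIF4A and KIF20A, the mRNAs with the highest IP over input of the 10 in S38A and S38D, and of KIF14, which had the lowest there, are shown because they hold this hexamer or a variant of it. They are from RefSeq on GRCh38.p14, found by symbol, whereas the counts were made on hg19, and no coordinate was carried over. Capitals mark the hexamer, TTTGAA in KIF4A and TTTAAA in the others. The windows are CENPE chr4:103198389-103198428 (minus strand), KIF4A chrX:70290053-70290092 (plus), KIF20A chr5:138179054-138179093 (plus) and KIF14 chr1:200620927-200620966 (minus). The hexamers start 68, 34, 41 and 198 bases before the annotated start, in that order, and in CENPE a second TTTAAA follows directly.
CENPE: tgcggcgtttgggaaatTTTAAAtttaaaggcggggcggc
KIF4A: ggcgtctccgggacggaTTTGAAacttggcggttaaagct
KIF20A: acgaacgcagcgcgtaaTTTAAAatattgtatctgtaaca
KIF14: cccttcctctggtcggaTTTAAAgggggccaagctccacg
Both strands of a 300-base window around each start were searched. TTTGAA was found in 7 of the 10 kinesin promoters (all but CENPE, KIF20A and KIF2C) and in 15.2% of 35116 promoters. TTTAAA, its own reverse complement, was searched after the 3 promoters without TTTGAA were seen. It was found in 5 (CENPE, KIF14, KIF20A, KIF23 and KIF2C) and in 12.2% of all promoters. Each of the 10 held one or the other, as did 24.0% of all promoters. CCAAT, a box that often stands near a CHR, was found in 7 of the 10 and in 34.6% of all promoters. KIF14 and KIF23 held both hexamers and a CCAAT box. The TTTGAA of KIF14 lies just after its start and is not shown. A match is a description of the sequence, not evidence of a bound site.

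Levels below are CPM (a gene's counts relative to the library total), scaled by the trimmed mean of M values (TMM). CPM are not per length, so levels are compared between libraries and never between genes. IP libraries held 3186164 to 7430881 gene counts and inputs 7434431 to 8723130. Spike-in RNA made up 1.44% to 5.43% of IP counts and 0.116% to 0.484% of input counts. The first WT IP library had the fewest counts, the largest spike-in share and the lowest TMM factor (0.827). It stands apart for these mRNAs too. Counts of calls in S38A and S38D, and fitted WT changes of CENPE and some others, are given with and without it. Correlations over the 12 libraries are given only with it.

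In the S38A and S38D lines, CENPE, KIF4A, KIF20A and KIF2C were higher in IP than in input. Averaged over both lines, CENPE was 3.48-fold, KIF4A 2.06-fold, KIF20A 1.80-fold and KIF2C 1.32-fold higher. The stated reason for the choice names the WT IP and not the S38A and S38D libraries, although earlier results of all lines were known when it was made. Of the 10 kinesin mRNAs, 4 passed the test in this direction and 0 in the other. Over all 16920 genes tested, 8.66% passed as higher and 7.77% as lower. The test was edgeR's quasi-likelihood test with Benjamini-Hochberg adjustment over all genes, at an adjusted p under 0.05. The WT libraries enter this fit through its shared estimates. Without the first WT IP library 8 of the 10 and 3681 of all genes passed in either direction, and without the second 8 and 3658, against 4 and 2779 with both. No IP from cells without the tag is among the libraries, so recovery of an mRNA without tagged RPL12 was not measured. In comparisons of bulk RNA between lines, a difference in the number of cells that hold an mRNA and one in its amount per cell cannot be told apart.

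**Figure D1:**
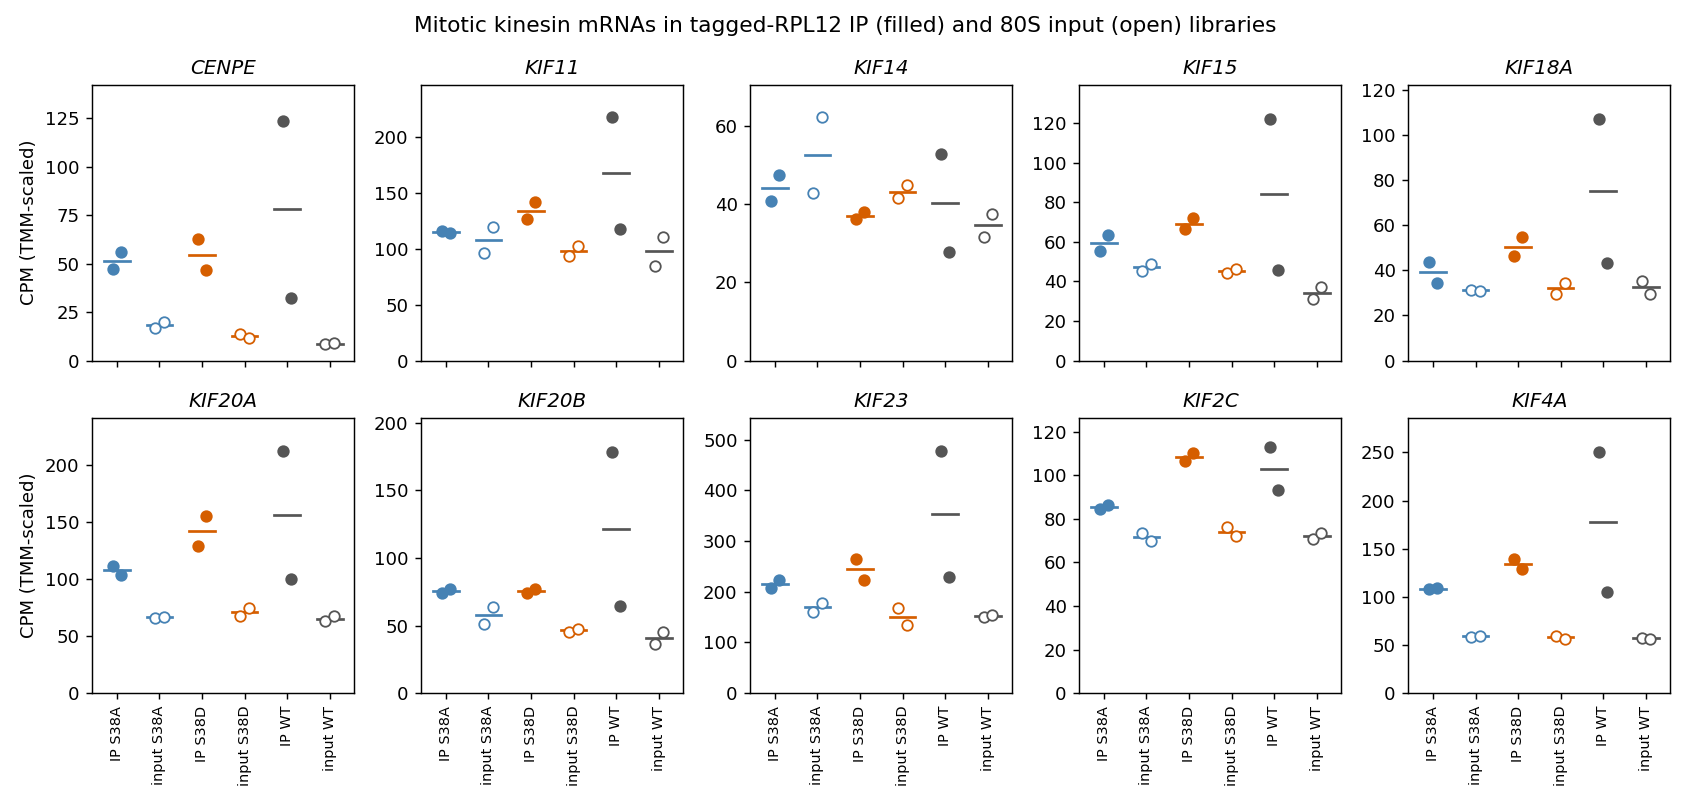
CPM (TMM-scaled, vertical axis) of each kinesin mRNA in the 12 libraries, with IP libraries filled, inputs open, and a line at the mean of the 2 libraries. CENPE is at 46.5 to 62.5 CPM in the 4 S38A and S38D IP libraries and at 11.9 to 19.9 CPM in their inputs, and the first WT IP library is the highest point in 9 of the 10 panels, all but KIF14.

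CENPE encodes the motor that sits at kinetochores and moves chromosomes toward the plus ends of microtubules at the spindle's middle. It had 47.2 and 55.8 CPM in S38A IP, against 16.8 and 19.9 CPM in S38A input. In S38D it had 62.5 and 46.5 CPM in IP, against 13.5 and 11.9 CPM in input. The lowest IP library of these lines had more than 2 times the CPM of their highest input, with no overlap. The log2 change over both lines was 1.80 (SE 0.305, 95% interval 1.2 to 2.4, adjusted p = 0.0040). This placed CENPE above 99.88% of the genes tested.

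KIF4A, a chromokinesin that works with PRC1 on the central spindle, had 107.6 and 109.3 CPM in S38A IP, against 58.8 and 59.5 CPM in S38A input. In S38D it had 138.9 and 129.0 CPM in IP, against 59.6 and 56.7 CPM in input. Its inputs lay close together, and all 4 IP libraries were above all 4 inputs. The log2 change was 1.04 (SE 0.20, 95% interval 0.65 to 1.43, adjusted p = 0.0062).

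KIF20A, which brings the chromosomal passenger complex to the central spindle, had 111.8 and 104.1 CPM in S38A IP, against 66.0 and 66.8 CPM in input. In S38D it had 128.8 and 155.9 CPM in IP, against 67.4 and 75.1 CPM in input. The groups did not overlap, and the log2 change was 0.85 (SE 0.18, 95% interval 0.49 to 1.21, adjusted p = 0.010). KIF2C, a kinesin that does not walk but takes microtubule ends apart to correct wrong attachments, changed least of the 4. It had 84.7 and 86.3 CPM in S38A IP, against 73.5 and 70.0 CPM in S38A input, and 106.4 and 110.1 CPM in S38D IP, against 76.4 and 72.0 CPM in S38D input. Its log2 change of 0.40 (SE 0.10, adjusted p = 0.021) stood beside replicates that lay close together, and its call held in 11 of 20 alternative settings. Those of CENPE, KIF4A and KIF20A held in all 20.

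The other motors of cell division did not pass the test over both lines. KIF23, the motor of the centralspindlin complex, had 206.7 to 265.0 CPM in the 4 IP libraries and 134.4 to 178.0 CPM in the 4 inputs, a log2 change of 0.52 (SE 0.19, adjusted p = 0.076). KIF20B, which takes part in the last steps of cytokinesis, had 74.1 to 77.1 CPM in IP and 45.2 to 63.7 CPM in input, a log2 change of 0.55 (SE 0.23, adjusted p = 0.13). Both had every IP library above every input. KIF23 passed with the fraction as a replicate block (adjusted p = 0.017). In that setting 5710 of all genes passed in either direction, against 2779 in the main fit.

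Among the spindle motors, KIF18A, which holds the chromosomes steady at the metaphase plate, had 34.5 to 54.7 CPM in IP and 29.7 to 34.3 CPM in input. KIF15, a second motor that keeps spindle poles apart, had 55.1 to 71.8 CPM in IP and 44.0 to 48.8 CPM in input. Their log2 changes were 0.49 (adjusted p = 0.16) and 0.47 (adjusted p = 0.17), again with no overlap between IP and input. KIF18A passed with the fraction as a replicate block (adjusted p = 0.028), where 5710 of all genes passed in either direction. KIF11, the tetrameric motor that pushes the poles apart, had 114.0 to 141.8 CPM in IP and 93.1 to 119.8 CPM in input. Its groups overlapped, at a log2 change of 0.27 (SE 0.17, adjusted p = 0.31).

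KIF14, which recruits citron kinase to the midbody in cytokinesis, was the only one of the 10 with a negative estimate. It had 40.9 and 47.5 CPM in S38A IP, against 42.9 and 62.4 CPM in S38A input, and 36.2 and 37.9 CPM in S38D IP, against 41.6 and 44.9 CPM in S38D input. The S38A groups overlapped and the S38D groups did not, but the share of all genes with such a gap in S38D was not computed. The log2 change of KIF14 over both lines was -0.24 (SE 0.185, adjusted p = 0.42). Its estimate in S38A alone was -0.25, and 0.04 without the second S38A input. Counted without a model, 8 of the 10 mRNAs (all but KIF11 and KIF14) had all 4 IP libraries above all 4 inputs, and so did 11.6% of all genes tested.

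**Figure D2:**
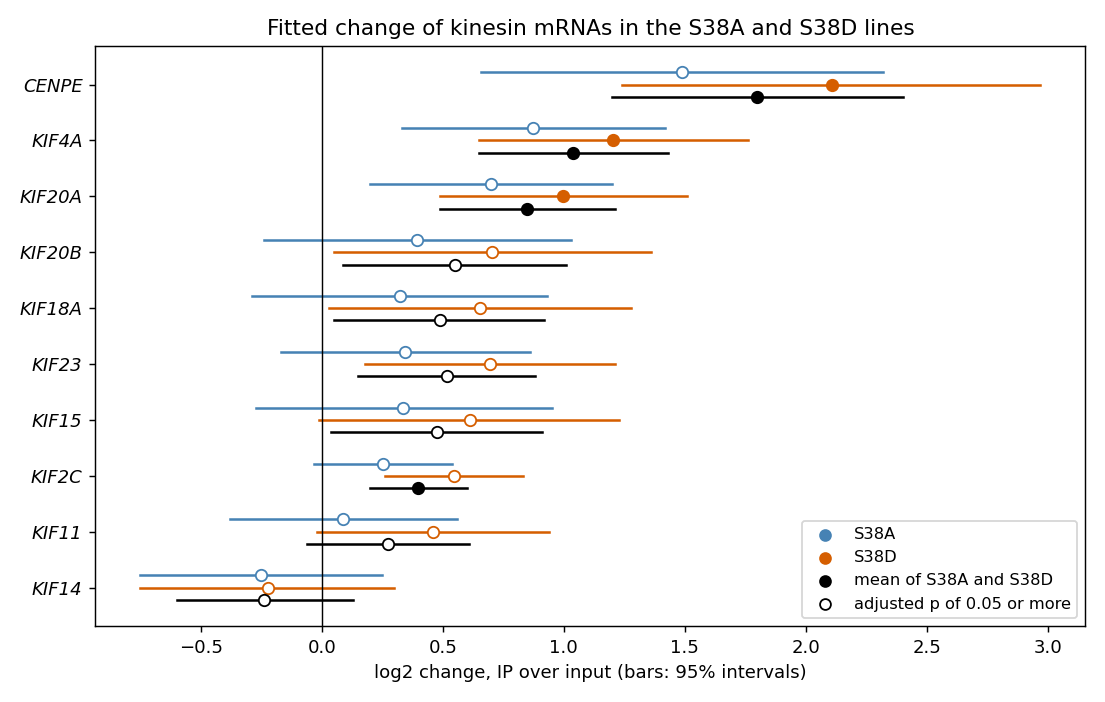
Fitted log2 change of IP over input (horizontal axis) for each kinesin mRNA in S38A, in S38D and as their mean, with bars for the 95% interval and filled points where the adjusted p is under 0.05. CENPE lies farthest to the right, at 1.49 in S38A and 2.11 in S38D, and KIF14 is left of 0 in all 3 estimates.

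In S38D alone, 3 of the 10 mRNAs passed as higher in IP than in input, beside 3.13% of all genes. They were CENPE (log2 change 2.11, SE 0.44, adjusted p = 0.028), KIF4A (1.20, SE 0.28, adjusted p = 0.034) and KIF20A (1.00, SE 0.26, adjusted p = 0.048). KIF2C just missed the threshold, at a log2 change of 0.545 (SE 0.15, adjusted p = 0.051). With 1 of the 4 S38D libraries left out, 0 of the 10 passed, and 0 to 4 of all genes in place of 824, while the log2 change of CENPE was 1.87 to 2.30. Without the first or the second WT input, 1 of the 10 (CENPE) passed, with 406 and 395 of all genes. Without the first WT IP library 7 of the 10 and 1809 of all genes passed, and without the second 8 and 1787. The call of KIF20A held in 9 of 20 alternative settings, that of KIF4A in 14 and that of CENPE in 16. With the fraction as a replicate block, 5 of the 10 and 3379 of all genes passed, with KIF2C (adjusted p = 0.012) and KIF23 (adjusted p = 0.034) added.

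In S38A alone, 0 of the 10 passed, beside 0% of all genes. At an unadjusted p under 0.05, 3 of the 10 and 2575 of all 16920 genes were reached. The estimates were 1.49 for CENPE (SE 0.42, adjusted p = 0.16), 0.87 for KIF4A (SE 0.28, adjusted p = 0.19) and 0.70 for KIF20A (SE 0.26, adjusted p = 0.23). With the fraction as a replicate block, CENPE (adjusted p = 0.015) and KIF4A (adjusted p = 0.029) passed, with 2079 of all genes. Without the first WT IP library 3 of the 10 and 139 of all genes passed, and without the second 3 and 100. DESeq2 called 1 of the 10 (CENPE) and 463 of all genes.

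The change in S38D was not shown to differ from that in S38A. The difference in log2 IP over input was 0.62 for CENPE (95% interval -0.56 to 1.80), 0.33 for KIF4A (-0.44 to 1.1), 0.30 for KIF20A (-0.42 to 1.01) and 0.29 for KIF2C (-0.11 to 0.69). The test called 0 of the 10 mRNAs and 0% of all genes, and the adjusted p was 1 for each of the 10. At an unadjusted p under 0.05, 0 of the 10 and 109 of all genes were reached. The intervals allow for CENPE a value up to 1.80 higher in S38D. On simulated counts, the test of this difference found 65% of the 4-fold and 9% of the 2-fold changes.

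The 10 mRNAs were set beside the G2M genes of the human marker pairs in scran, as the files' identifiers could be matched to no list of kinesin partners by symbol. The list held 215 genes, 7 of them among the 10 kinesins, and 201 of the 208 others were tested. Over S38A and S38D, 21 of the 201 passed as higher in IP and 17 as lower, so that 10.4% were higher. Their median log2 change was -0.01, against 0.50 for the 10 kinesin mRNAs and -0.03 for all genes. In S38D, 6 of the 201 passed as higher and 4 as lower, with a median of -0.01, against 0.67 for the kinesins. In S38A, 0 passed in each direction, with medians of -0.01 and 0.34. Nothing was tested between the lists.

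The next values describe the WT line, whose IP was used to choose the mRNAs, and carry no test. CENPE had 123.5 and 32.5 CPM in WT IP, against 8.29 and 8.90 CPM in WT input, and a fitted log2 change of 3.15. Both WT IP libraries were above both inputs for 9 of the 10 mRNAs. KIF14 was the exception, with 52.8 and 27.7 CPM in IP and 31.6 and 37.5 CPM in input. The share of all genes with such a gap in WT was not computed, so this count is no result about the kinesins. The 2 IP libraries differed widely. KIF20B had 178.3 and 64.1 CPM in WT IP, against 36.2 and 45.0 CPM in input, and KIF15 had 122.0 and 45.7 CPM in WT IP, against 31.2 and 36.9 CPM in input.

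Within the first WT fraction the log2 ratio of IP over input was higher than within the second for 10 of the 10 mRNAs. The median difference between the fractions was 1.20 for the 10 mRNAs and -0.02 for all genes, of which 48.5% were higher in the first. The fitted log2 change of CENPE was 1.94 without the first WT IP library and 3.84 without the second. For KIF4A the fit gave 1.63 with both, 0.91 without the first and 2.13 without the second. KIF18A, KIF15 and KIF20B gave 0.43, 0.45 and 0.68 without the first, against 1.19, 1.28 and 1.56 with both. KIF14 gave -0.29 without the first, against 0.19 with both. The first WT IP library also had the lowest depth and the largest spike-in share of all, and the part of these in its values was not tested.

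**Figure D3:**
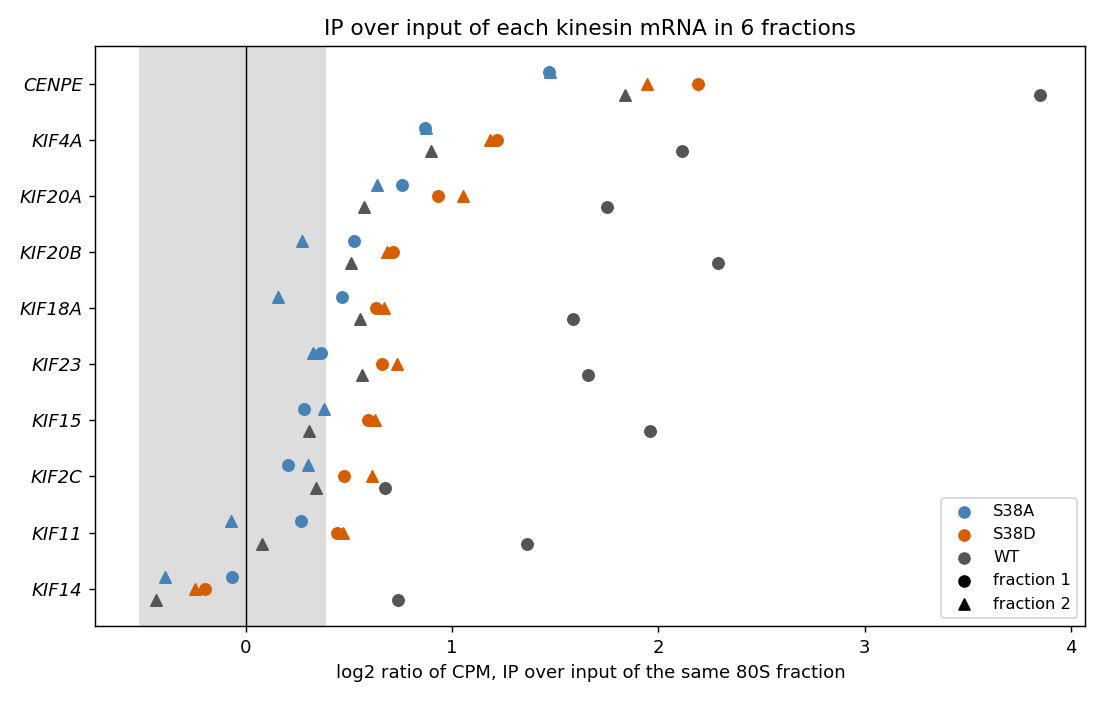
Log2 ratio of IP over input CPM (horizontal axis) within each of the 6 fractions for each kinesin mRNA, ordered by the median of the S38A and S38D fractions. Circles are the first and triangles the second fraction of a line, and the grey band spans the quartiles of all genes (-0.51 to 0.38, the widest over the fractions). CENPE is the rightmost mRNA in every fraction, and the first WT fraction is to the right of the second in all 10 rows.

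The top and the bottom of the order of the mRNAs recurred between fractions. CENPE had the highest ratio of the 10 in all 4 S38A and S38D fractions, at 1.47 and 1.48 in S38A and 2.19 and 1.94 in S38D. In WT, where a high value was a reason for its choice, it had 3.85 and 1.84. KIF4A was second and KIF14 last in the same 4 fractions. In the first WT fraction KIF4A was behind KIF20B, and KIF2C was last. In WT fraction 2 CENPE had a ratio between those of the S38A and S38D fractions. Because the mRNAs share their libraries, the repeated order is not independent from one mRNA to the next, and neighbours such as KIF20B, KIF18A, KIF23 and KIF15 changed places between fractions. The fitted difference of CENPE in log2 IP over input was -1.66 in S38A and -1.045 in S38D relative to WT. These 2 values share the WT libraries and contain the WT IP, so they are not tested. Without the first WT IP library the fit gave CENPE 1.46 in S38A and 2.08 in S38D, against 1.94 in WT.

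The share of CENPE among the reads of the 10 mRNAs does not depend on the scaling of a library. It was 5.32% and 6.10% in S38A IP, against 2.62% and 2.76% in S38A input. In S38D it was 5.95% and 4.44% in IP, against 2.11% and 1.90% in input, and in WT, 6.66% and 3.79% in IP, against 1.46% and 1.43% in input. The WT shares come from libraries used in the choice and are a description. In S38A and S38D, the lowest IP share was 4.44% (exact Clopper-Pearson 95% interval 3.77 to 5.18), against 2.76% (2.39 to 3.17) for the highest input. The intervals cover counting error only.

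KIF14 lay the other way among these reads. Its share was 4.61% and 5.19% in S38A IP, against 6.67% and 8.67% in S38A input, and 3.45% and 3.62% in S38D IP, against 6.52% and 7.19% in S38D input. In WT it was 2.85% and 3.23% in IP, against 5.55% and 6.05% in input. In S38A and S38D, each IP share of KIF14 was below each input share, and the WT shares are a description. In these lines KIF4A took 11.9% to 13.2% in IP and 8.27% to 9.35% in input. KIF20A took 11.4% to 14.9% in IP and 9.28% to 12.0% in input there, which overlapped. Shares of the 10 sum to 100%, so a higher share of one lowers the others.

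**Figure D4:**
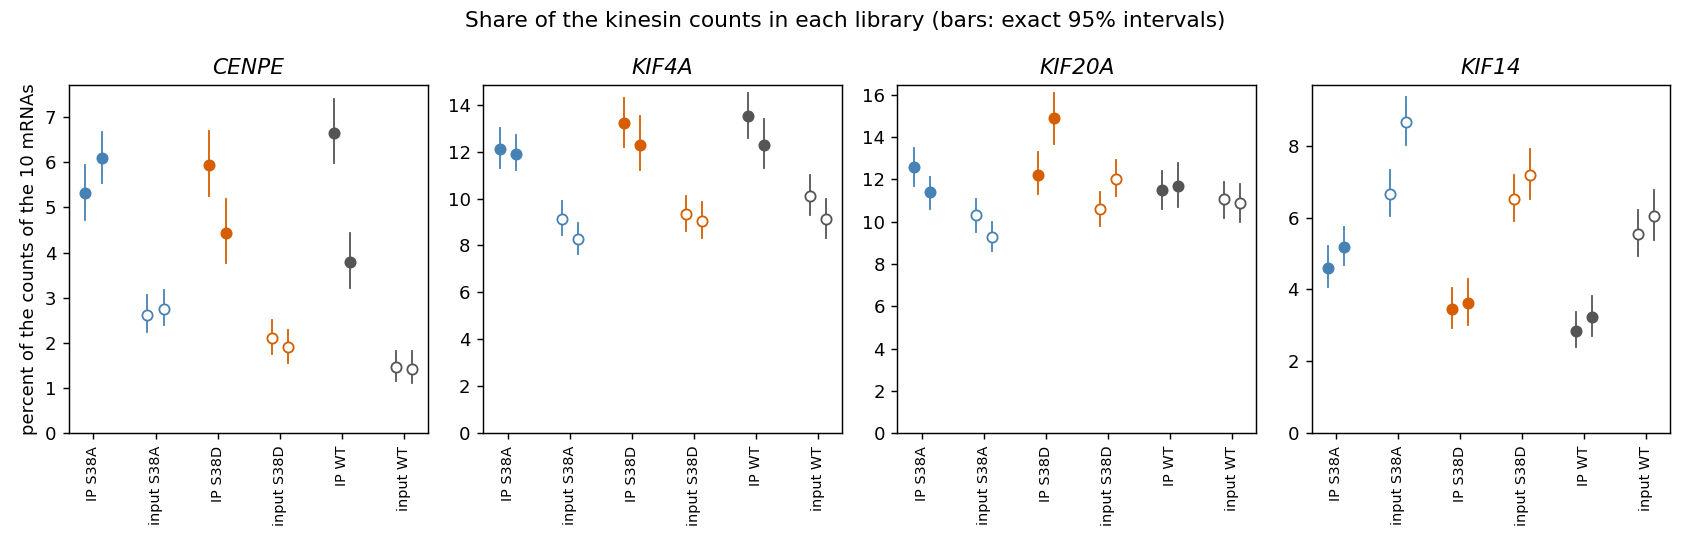
Share of 4 kinesin mRNAs among the reads of the 10 (percent, vertical axis) in each library, IP filled and input open, with exact 95% intervals for counting error. IP points lie above input points for CENPE and KIF4A and below them for KIF14 in each line, and the CENPE inputs run from 2.76% in S38A down to 1.43% in WT.

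The inputs, which hold the 80S-associated RNA before the IP, were compared between lines in a fit of their own. The WT inputs are also the reference of the contrast used in choosing the mRNAs, and a low CENPE there favoured the choice. CENPE against WT input is therefore described by its values, the counts of calls support nothing about it, and the other mRNAs' comparisons with WT input are not independent of the choice. CENPE had 16.8 and 19.9 CPM in S38A input and 13.5 and 11.9 CPM in S38D input, against 8.29 and 8.90 CPM in WT input. The fitted log2 change was 1.12 in S38A and 0.58 in S38D relative to WT. The S38D and S38A inputs did not overlap, but the share of all genes with such a gap was not computed. The log2 change of CENPE in S38D relative to S38A did not pass the test, at -0.54 (SE 0.225, adjusted p = 0.96).

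In S38A relative to WT input, 0 of the 10 mRNAs and 0% of all 16728 genes passed as higher. At an unadjusted p under 0.05, 4 of the 10 and 2566 of all genes were reached. The 4 were CENPE, KIF14 (log2 change 0.63, SE 0.20, adjusted p = 0.21), KIF20B (0.525, SE 0.17, adjusted p = 0.22) and KIF15 (0.49, SE 0.16, adjusted p = 0.22). Both S38A inputs were above both WT inputs for 6 of the 10 mRNAs (CENPE, KIF14, KIF15, KIF20B, KIF23 and KIF4A), as for 23.9% of all genes. For KIF4A this was a gap of little size, with 58.8 and 59.5 CPM in S38A input and 57.6 and 56.5 CPM in WT input. The counts of 4 and 6 include CENPE, whose low WT input favoured the choice, so they are a description.

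In S38D relative to WT input, 0 of the 10 passed, beside 0.00598% of all genes, and 2 of the 10 (CENPE and KIF15) and 555 of all genes had an unadjusted p under 0.05. KIF15 had 44.0 and 46.4 CPM in S38D input, against 31.2 and 36.9 CPM in WT input, a log2 change of 0.43 (SE 0.16, adjusted p = 1). Scaled to the spike-ins instead, the estimates were -0.22 for CENPE (SE 1.14) and -0.33 for KIF15 (SE 1.08), with the median of all genes at -0.83. These errors are larger than the estimates, so this scaling shows no direction. The 2 WT inputs had spike-in shares of 0.116% and 0.484%. Both S38D inputs were above both WT inputs for 5 of the 10 (CENPE, KIF14, KIF15, KIF20A and KIF20B), as for 18.2% of all genes. The counts of 2 and 5 against WT input include CENPE as well and are a description. In S38D relative to S38A input, 0 of the 10 passed as higher, beside 0.00598% of all genes. There 1 of the 10 (CENPE, lower in S38D) and 630 of all genes had an unadjusted p under 0.05. KIF11, KIF18A, KIF20A, KIF23, KIF2C and KIF4A lay within 0.17 of 0 on the log2 scale in all 3 input comparisons.

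By Pearson correlation of log2 CPM over the 12 libraries, the genes most like CENPE were ENSG00000107890 (r = 0.995) and ENSG00000111879 (r = 0.987), of 13103 genes with a mean of at least 5 CPM. The files give them no name. Of the kinesins, KIF4A was the most like CENPE (r = 0.952, rank 28) and KIF14 the least (r = 0.213, rank 5147). All genes share the 12 libraries, which fall into an IP and an input group and include the first WT IP, so these values are a description of likeness and carry no test.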

How the data were processed

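Polyadenylated RNA of 6 IP and 6 input libraries was analysed, grouped by the libraries' titles. The authors deposited raw counts of reads per gene, 1 table per library, with 57820 Ensembl identifiers and 92 spike-in sequences. The submitters' processing notes name STAR 2.4.2a, DESeq2, bcl2fastq 2.16.0.10 and the hg19 build, with no roles. How reads were counted (tool, strand, reads with several hits) and on which annotation was not stated in the labels or notes, so shared or antisense reads between genes cannot be judged. The members and lists were chosen with earlier results of these data known.

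The test was the quasi-likelihood test of edgeR 4.0.16 under R 4.3.3 (filterByExpr by group, minimum count 10, TMM, glmQLFit, glmQLFTest). All 12 libraries entered the fit for IP against input (16920 genes, biological coefficient of variation 17.4%), and the 6 inputs a fit of their own (16728 genes, 15.7%). Spike-ins stayed out of library sizes. The standard error was the log2 change over the square root of the test's F, intervals are 1.96 standard errors, and ratios within a fraction used a prior count of 2. P-values were adjusted within each of 7 comparisons. The rule for named genes took all 10 kinesins, plus the genes most correlated with CENPE. Lists by symbol matched no identifier, since 0 of 59792 reference genes carried an Ensembl identifier. The G2M list took genes of scran 1.30.0 in at least 20 pairs of a phase, higher in a share of at least 0.8.

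The libraries' titles give a line and a number and do not state which IP belongs to which input. An IP library and the input of the same number were assumed to come from 1 fraction. Their deviations from the group means across genes had correlations of 0.644 in S38A, 0.543 in S38D and 0.281 in WT, so the numbers were taken as pairs. The main fit had no term for this pairing, which the replicate block adds. Replicates differed beyond sampling noise (chi-square per degree of freedom 5.74 to 17.4). On simulated counts, the test found 93% of the 4-fold and 66% of the 2-fold changes over both mutant lines among 16658 genes. It found 83% and 33% in S38A among 16636, and 81% and 36% in S38D among 16649. For the difference between S38D and S38A in IP over input, it found 65% and 9% among 16647. For S38A relative to WT input, it found 82% and 36% among 16511. The simulation changed only 100 genes 4-fold and 100 genes 2-fold and had no effect of the fraction. These rates may therefore differ from those in the data. The alternatives were other scalings (total counts, RLE, and spike-ins for the inputs), other tools (DESeq2 1.42.0, and voom in limma 3.58.1), other filters (none, or a mean CPM of 10), the replicate block, a fit of the 8 S38A and S38D libraries, and leaving out libraries one at a time.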

Additional observations from a re-analysis of the deposited data

How the results depend on the processing

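Of the tested values of single kinesins, 684 kept their direction and side of the threshold, 59 newly passed, 30 no longer passed and 5 changed sign. Over both mutant lines, the main count of 4 kinesin mRNAs called was 7 with no filter and 8 with the 8 libraries of S38A and S38D alone, and 3 to 8 with each library left out in turn. CENPE, KIF4A and KIF20A were called in 20 of 20 alternatives there, at log2 changes of 1.61 to 1.89, 0.85 to 1.06 and 0.66 to 0.91. In S38D, where the main count was 3, it was 2 with total counts (KIF20A lost), 5 with DESeq2, voom, no filter and the replicate block, 7 with the 8 libraries alone, and 0 to 8 with libraries left out. In S38A, where it was 0, it was 1 with DESeq2, 2 with the replicate block (CENPE and KIF4A), 3 with no filter, and 0 to 3 with libraries left out. In S38A relative to WT input it was 1 with DESeq2 (CENPE) and 2 with no filter (CENPE and KIF14). In the main setting it was 0, as with the inputs' replicate number as a block. These numbers do not pair the inputs, whose deviations correlated at -0.066 to 0.217. The WT inputs were part of the choice, so calls of CENPE against them support nothing about it. The counts for S38D relative to S38A and for S38D relative to WT or S38A input were 0 in every alternative run.

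KIF14 in WT, not tested, gave -0.09 with total counts and -0.29 without the first IP library, against 0.19. KIF11 in S38A gave -0.03 with total counts and -0.06 to 0.25 with libraries left out, against 0.09. KIF14 in S38A gave -0.50 to 0.04 with libraries left out, against -0.25. With spike-in scaling of the inputs, CENPE and KIF15 in S38D relative to WT input gave -0.22 (SE 1.14) and -0.33 (SE 1.08), against 0.58 and 0.43. That scaling moved the median of all genes to -0.44 in S38A and -0.83 in S38D relative to WT input, and to -0.40 in S38D relative to S38A input. Total counts moved the median of all genes to -0.22 over both mutant lines, -0.12 in S38A and -0.31 in S38D. The number of all genes called moved with the settings too. It was 2779 over both mutant lines, 5710 with the replicate block and 1015 to 3681 with libraries left out. In S38D it was 824, 3379 with the block, 1555 to 1847 with total counts, DESeq2, voom and no filter, and 0 to 1809 with libraries left out. In S38A it was 0, 2079 with the block, 463 with DESeq2 and 399 with no filter. In S38A relative to WT input it was 0, 419 with DESeq2 and 924 with no filter. Apart from fewer libraries or other genes tested, the cause was not tested. With 2 libraries a group, 2-fold changes were often missed in simulated counts. KIF11, KIF14, KIF15, KIF18A, KIF20A, KIF20B, KIF23 and KIF2C had estimates below 2-fold in S38A and S38D. KIF20A was at log2 changes of 0.701 and 0.997 there, and KIF4A was below 2-fold in S38A only (1.83-fold).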
